A study of Homo sapiens with 42 samples.

Results

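Antisense long noncoding RNA genes were measured at their 3′ ends in MDA-MB-231 cells, a line from a human triple-negative breast cancer. The genes were those that GENCODE 29 (GRCh38) classes as antisense and whose summed reads averaged at least 10 per library in a table. SLCO4A1-AS1, the SNHG genes, GAS5 and ZFAS1 were left out. In all, 152 genes qualified among 4546 antisense genes with entries in the files and 42145 genes of all types. The files form 3 tables, one of LM2 and Par cells, one of an HNRNPC knockdown and one of the compound T4, which held 104, 126 and 124 of the genes, with 91 in all 3. Reads of any number were found for 1024, 1170 and 1124 antisense genes in those tables.

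The 42 QuantSeq REV libraries formed 14 groups of 3. LM2 cells spread efficiently to the lungs and Par cells poorly, per the labels, and nuclear and cytoplasmic RNA of both was sequenced separately. The knockdown table covered both fractions too, from poorly metastatic cells with HNRNPC depleted (gHNRNPC) or control cells (gCTRL). For the T4 table, LM2 cells received T4 at 3 µM in DMSO, or DMSO alone, for 6 h, and whole-cell RNA was taken at 6, 24 or 72 h. All groups share the MDA-MB-231 background. Since no label calls replicates separate cultures, p-values reflect the scatter of these libraries alone, and that may be technical scatter.

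Antisense RNA genes lie on the strand opposite a protein-coding gene, here called the sense gene, and many start near its promoter. Their RNAs are often spliced and polyadenylated but are held in the nucleus or degraded by the nuclear exosome more than mRNAs are. HNRNPC is an abundant nuclear protein that binds uridine tracts in new transcripts. Some antisense RNAs, such as AFAP1-AS1, have been studied as RNAs raised in tumours.

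The deposited values were estimated counts, and they split the antisense RNA genes into 2 classes. In 46 genes at most 10% of the reads lay in non-whole values (25, 42 and 19 in the 3 tables), and these are called whole-valued. In the other 106 genes (79, 84 and 105) more than 10% did, so reads had been divided between sequences, and every value given for them is uncertain. The median share of reads in non-whole values was 98.3%, 92.3% and 100% per antisense RNA gene in these tables, against 0% per protein-coding gene in each. The 137, 166 and 152 lincRNA genes had medians of 98.9%, 89.8% and 100%.

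The transcript ends differed between these classes. A 31-base stretch of the last 300 bases was shared with the end of another gene in 101 of the 106 non-whole genes, with a median of 135 other genes, and in 5 of the 46 whole-valued genes. AATAAA, the main polyadenylation signal, stood in the last 50 bases of 50% of the whole-valued genes and 23.6% of the non-whole genes, against 29.2% of 20542 listed ends of genes of all types. Counting ATTAAA too, the shares were 58.7%, 26.4% and 36.3%. The antisense RNA genes enter with only their most-read transcript end, whereas the share for all types takes every listed end, whatever its reads. The classes can thus be compared with each other, but not like for like with all types. The ends of 4 whole-valued genes that carry the results are shown first, as the last 60 bases of the GENCODE 29 transcript (GRCh38) with AATAAA in capitals.
AC093673.1: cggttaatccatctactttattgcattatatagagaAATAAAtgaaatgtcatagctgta
AC121761.1: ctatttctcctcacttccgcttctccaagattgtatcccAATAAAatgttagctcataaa
AL354836.1: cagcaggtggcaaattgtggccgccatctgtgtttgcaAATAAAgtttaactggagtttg
AFAP1-AS1: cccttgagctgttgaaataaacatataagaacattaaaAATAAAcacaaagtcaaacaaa

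Other whole-valued ends held neither signal. The next 3 are shown because their genes are among those described below for T4 or the knockdown; the end of AL355075.4 is a run of 18 A in the genome sequence.
AL355075.4: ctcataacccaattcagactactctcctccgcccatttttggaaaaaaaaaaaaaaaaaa
FLJ37453: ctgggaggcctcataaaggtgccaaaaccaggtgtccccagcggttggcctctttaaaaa
AC067852.2: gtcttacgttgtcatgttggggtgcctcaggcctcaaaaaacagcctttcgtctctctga

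Most of these genes overlapped their sense gene. Among the whole-valued genes, 41 overlapped a protein-coding gene on the other strand, by a median of 2086 bp, and 5 started within 5 kb of one. Among the non-whole genes 95 overlapped, by a median of 3047 bp, 7 started within 5 kb and 4 did neither. The files do not state whether reads were counted by strand, so reads of an antisense RNA and of its partner could not be told apart with certainty. The last 100 bases lay wholly in exons of the sense gene in 5 whole-valued genes (AFAP1-AS1, AC067852.2, AC027307.2, AC021097.1 and PITPNA-AS1), partly in 2, and outside them in the other whole-valued genes. In 9 whole-valued genes a coding gene on the same strand ended within 5 kb upstream. On the same strand SRGAP3 overlaps THUMPD3-AS1 and SEC31A overlaps THAP9-AS1, and whether their reads contribute was not tested. AL355075.4 contains the whole of RPPH1, the RNA subunit of RNase P, on the same strand: the 333 bp of RPPH1 end 27 bp from its own end, and their reads could not be told apart; RPPH1 itself was not analysed here.

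The reads per gene were low. Near the threshold, AC063960.1 and PXN-AS1 (means of 10.3 and 10.5 reads in the LM2 and Par table) were inside and PSMD6-AS1 (9.91) outside; VPS9D1-AS1 (10.0) was inside and AL139339.2 (9.75) outside in the knockdown table; ITPK1-AS1 (10.4) was inside and THAP9-AS1 (9.89) outside in the T4 table. Library totals ran from 798050 to 2304700 counts, which limits low genes. Levels are given in CPM, reads per 1000000 reads after TMM scaling of the library. Changes are log2 values ± standard error from edgeR's quasi-likelihood test, and a gene is said to rise or fall where its adjusted p (Benjamini-Hochberg over all genes tested) is under 0.05. The test included 103, 126 and 124 of the antisense RNA genes among 8542, 9351 and 8035 genes of all types, table by table. Of the cell markers, VIM lay at 43.2 to 1590 CPM and CD44 at 27.0 to 462 CPM over libraries, EPCAM at 0.511 to 20.4 CPM, PTPRC at no more than 0.857 CPM, and CD3E and DCN at 0. PECAM1, VWF and CDH1 reached no more than 1.20, 1.59 and 2.31 CPM. Other markers of myeloid cells and fibroblasts were present. CD68 lay at 1.93 to 125.5 CPM and CD14 reached 11.9 CPM, both highest in gHNRNPC nuclei. COL1A1 reached 61.3 CPM in LM2 nuclei (mean 49.6 CPM), against a mean of 0.276 CPM in Par nuclei.

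**Figure D1:**
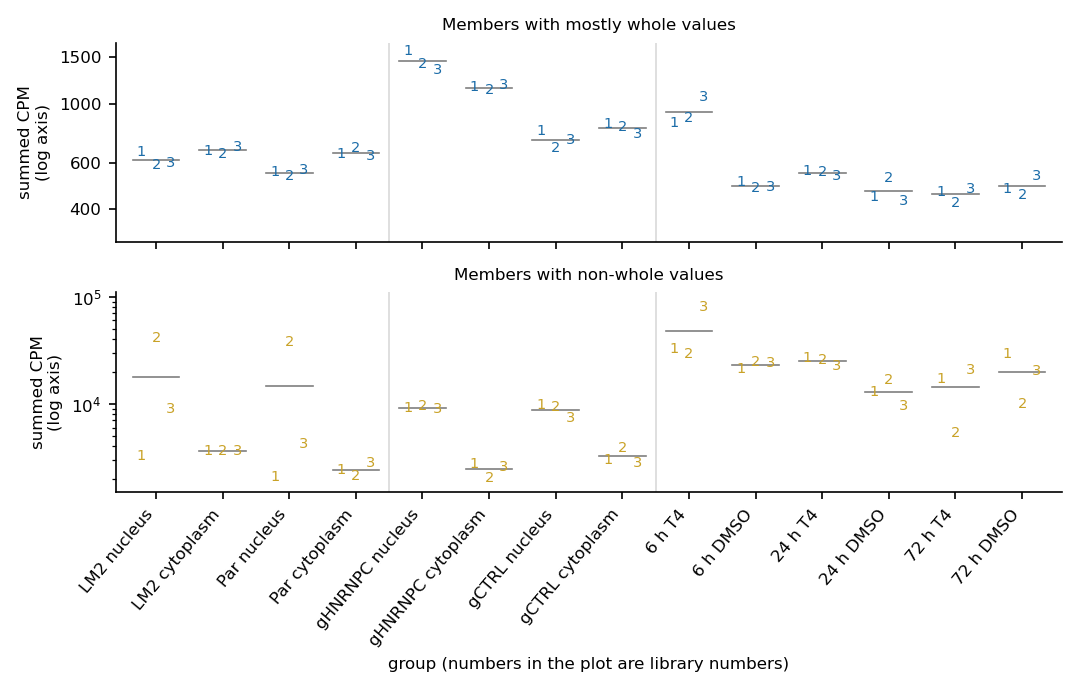
Summed level of each table's whole-valued genes (top) and non-whole genes (bottom) in each library, in CPM on log axes. Per table (LM2 and Par, knockdown, T4) these were 25, 42 and 19 whole-valued genes and 79, 84 and 105 non-whole genes. Numbers are library numbers, lines group means, and grey lines part the 3 tables, whose sums cover different genes. In the knockdown table the top sums are highest in gHNRNPC nuclei and next in gHNRNPC cytoplasm. The bottom sums spread most between nuclear libraries of LM2 and Par cells.

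Summed over the genes of a class in a table, the whole-valued genes gave similar levels in replicate libraries and the non-whole genes did not. The whole-valued sum was 614 ± 37.9 CPM in LM2 nuclei and 548 ± 14.1 CPM in Par nuclei (SD, n = 3 each). The non-whole sum ran from 3287 to 40750 CPM in LM2 nuclei and from 2098 to 37930 CPM in Par nuclei, with the library numbered 2 highest in both. Those libraries had the lowest TMM factors of their table, 0.722 and 0.731. In the T4 table the non-whole sum was 80840 CPM in the third library of T4 at 6 h, whose TMM factor was 0.499, and 32290 and 29020 CPM in the others of its group. The part of these libraries in the results below was not tested beyond leaving each out.

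Between nucleus and cytoplasm the classes went different ways. Whole-valued genes were more often cytoplasmic than nuclear, and non-whole genes were nearly all nuclear where they passed the test. The minimum of 10 reads was a mean over the libraries of both fractions, so a gene could qualify through the fraction where it was high. The rule thus partly fixes the counts, medians and sizes of the fraction differences given here and below. No alternative chose genes by a single fraction. In LM2 cells 3 whole-valued genes were higher in the nucleus and 6 lower, with a median log2 difference of −0.30 over 25 genes, and 38 non-whole genes were higher and 1 lower (median 2.69 over 78). Over all genes tested there, 31.4% were higher in the nucleus and 23.5% lower (median 0.22). In Par cells the whole-valued counts were 3 higher and 9 lower (median −0.61) and the non-whole counts 43 and 1 (median 3.01), where 25.8% and 21.9% of all genes passed (median 0.07). The gHNRNPC cells gave 10 higher and 14 lower of 42 whole-valued genes (median −0.67) and 74 and 1 of 84 non-whole genes (median 2.30), with 31.3% and 23.1% of all genes. In gCTRL cells 7 whole-valued genes were higher and 17 lower (median −0.65), 67 non-whole genes were higher and 4 lower (median 2.13), and 33.9% and 27.6% of all genes passed. Of the whole-valued genes 24% were lower in the nucleus in LM2 cells, near the share of all genes. The shares lower in Par, gHNRNPC and gCTRL cells were 36%, 33.3% and 40.5%. The lincRNA genes resembled the non-whole class, with median differences of 2.38, 2.34, 1.56 and 1.71 in LM2, Par, gHNRNPC and gCTRL cells.

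Counts for LM2 and Par cells rested on single libraries. Of all 104 antisense RNA genes, 48 passed in LM2 cells and 56 in Par cells. Without LM2 nuclear library 2 the count in LM2 cells was 20, and without LM2 cytoplasmic library 1, 2 or 3 it was 15, 17 or 14. Without Par nuclear library 2 the count in Par cells was 17, and without Par cytoplasmic library 1, 2 or 3 it was 17, 18 or 24. With both nuclear libraries numbered 2 left out, 62 genes passed in LM2 cells (49 higher, 13 lower) and 46 in Par cells (30 higher, 16 lower). The whole-valued counts stayed between 7 and 11 in LM2 cells and between 10 and 13 in Par cells when single libraries were left out. Among other RNAs, MALAT1, a nuclear noncoding RNA, was higher in the nucleus by 1.51 to 3.26, and the ribosomal protein mRNA RPLP0 was lower by 1.35 to 1.95, in the 4 kinds of cells. Other ribosomal protein mRNAs were not uniform. RPL13A had 0.24, −0.28, −0.28 and −0.40 in LM2, Par, gHNRNPC and gCTRL cells, past no threshold. RPL3 had −0.63, −0.36, −0.60 and −1.21, past it except in Par cells. RPS3 had −0.04, 0.06, −2.01 and −1.91, past it only in gHNRNPC and gCTRL cells.

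**Figure D2:**
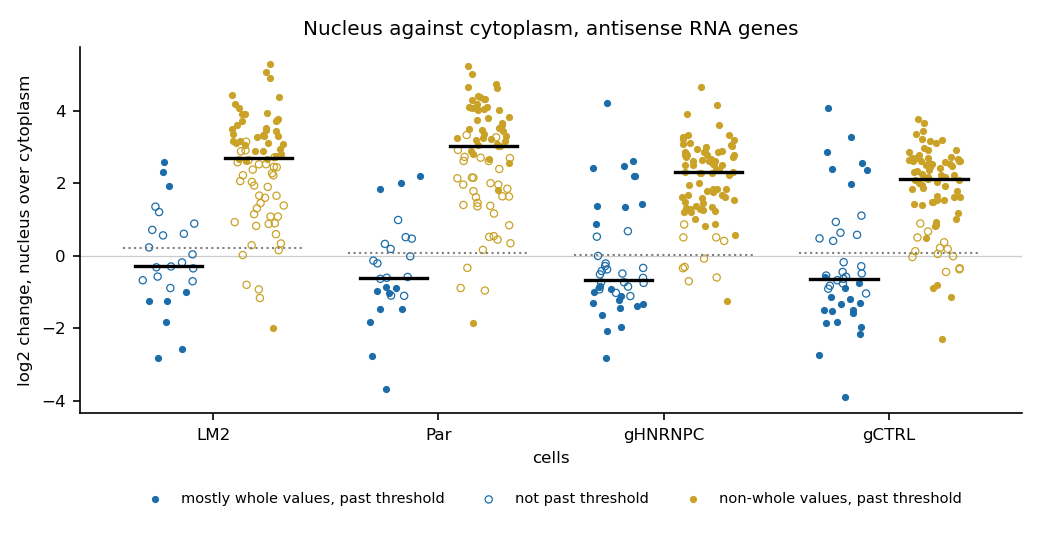
Log2 difference of nucleus over cytoplasm for each antisense RNA gene in 4 kinds of cells (x axis); blue points are whole-valued genes, yellow points non-whole genes, filled where past the threshold, black bars class medians and dotted lines the median of all genes tested. Whole-valued medians lie between −0.67 and −0.30 and non-whole medians between 2.13 and 3.01.

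A small set of whole-valued RNAs was nuclear in all 4 kinds of cells: THUMPD3-AS1, FLJ37453 and AL354836.1. THUMPD3-AS1 (chromosome 3, 9349689 to 9398579, minus strand) is the partner of THUMPD3, which takes part in tRNA methylation. It had 21.1, 32.4 and 21.6 CPM in LM2 nuclei, against 5.14, 4.33 and 2.86 CPM in LM2 cytoplasm. The fractions did not overlap. The log2 difference was 2.58 ± 0.41 in LM2 cells, 2.20 ± 0.42 in Par cells, 2.62 ± 0.28 in gHNRNPC cells and 2.55 ± 0.33 in gCTRL cells (edgeR adjusted p = 0.00036, 0.00156, 2.76e-08 and 5.22e-07). THUMPD3 mRNA itself differed by −0.05 in LM2 cells and −0.19 in gCTRL cells, past no threshold. The end of THUMPD3-AS1 in the genome is a run of 13 A. SRGAP3 overlaps THUMPD3-AS1 on the same strand, and whether SRGAP3 reads contribute to these values was not tested.

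FLJ37453 (chromosome 1, 15834474 to 15848147, minus strand) overlaps SPEN, which encodes a transcriptional repressor with RNA-binding domains. Its level was 82.4, 76.3 and 83.8 CPM in gCTRL nuclei and 9.73 to 18.5 CPM in gCTRL cytoplasm. Every nuclear library was above every cytoplasmic one, by 2.38 ± 0.26 on the log2 scale. AL354836.1 (chromosome 20, 62305432 to 62306325, minus strand) overlaps ADRM1, a ubiquitin receptor of the proteasome, and starts 1630 bp past the end of LAMA5, a laminin gene on its own strand. It had 167, 116 and 126 CPM in gCTRL nuclei and 16.3, 21.1 and 18.5 CPM in gCTRL cytoplasm, a log2 difference of 2.87 ± 0.22 with no overlap. LAMA5 differed by 4.03 in the same cells, and ADRM1 by −0.44 (edgeR adjusted p = 0.0458). Whether reads past the end of LAMA5 contribute was not tested.

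Further RNAs were nuclear in the knockdown table: AC021097.1, AC034236.2, AC009831.1 and DBH-AS1 in gHNRNPC and gCTRL cells. AC021097.1 (chromosome 7, 151240399 to 151240972, plus strand), whose end lies in exons of SMARCD3, a chromatin remodelling subunit, differed by 4.203 ± 0.49 in gHNRNPC cells and 4.07 ± 0.59 in gCTRL cells. CHPF2, a coding gene that ends 1572 bp upstream of it on the same strand, differed by 3.63 and 3.75. AC034236.2 (chromosome 5, 116083807 to 116085416, minus strand) differed by 2.48 ± 0.45 and 3.28 ± 0.58. Its partner COMMD10 had values of −0.29 and −1.08, and the second of these passed the threshold (edgeR adjusted p = 0.00676).

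Cytoplasmic RNAs were more numerous. MAFG-DT, ATP6V0E2-AS1, WAC-AS1, AL441992.1 and AC027307.2 were lower in the nucleus in all 4 kinds of cells. The calls of ATP6V0E2-AS1 were kept in 7 of 16 alternatives in Par cells and 11 of 15 in gHNRNPC cells, and those of AL441992.1 in 9 of 16 in LM2 cells and 13 of 15 in gHNRNPC cells. The others were kept in all alternatives run. MAFG-DT (chromosome 17, 81927829 to 81930753, plus strand) starts 115 bp from MAFG, a small Maf transcription factor, on the other strand. In Par cells it had 3 reads in the nuclear libraries and 74 in the cytoplasmic ones, so cytoplasm was 14.1-fold higher (95% counting interval 4.65 to 70.1). MAFG mRNA went the other way, with log2 values of 1.34 in LM2 cells and 0.79 in gCTRL cells, both past the threshold (edgeR adjusted p = 0.0181 and 0.00661). The ratio of MAFG-DT to MAFG differed between fractions in all 4 kinds of cells.

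AC027307.2 (chromosome 19, 1457670 to 1458580, minus strand), whose end lies in exons of APC2, was lower in the nucleus by 1.25 ± 0.16 in LM2 cells and by 0.86 ± 0.15 in Par cells. The fractions did not overlap: LM2 nuclei had 69.5, 82.9 and 85.1 CPM and LM2 cytoplasm 179, 185 and 200 CPM. TMEM132D-AS1 (chromosome 12, 129109629 to 129113294, plus strand), inside the gene of a membrane protein, fell by 3.88 ± 0.51 on the log2 scale in gCTRL nuclei against cytoplasm. AC121761.1 (chromosome 12, 75483454 to 75489820, minus strand) and its partner GLIPR1, a p53-responsive gene, were opposite in gCTRL cells. AC121761.1 had 2 nuclear and 19 cytoplasmic reads, 7.05-fold higher in cytoplasm (95% counting interval 1.70 to 62.4), and GLIPR1 was higher in nuclei by 4.55.

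The non-whole genes named by the size of their difference were PINK1-AS, AC063960.1, AL157756.1, AP002490.1 and AP001020.3 in LM2 cells, with log2 values of 4.38 to 5.30, and BSN-AS1, AC026624.1, AC023024.1, AL157756.1 and AC005726.5 in Par cells, with 4.38 to 5.00. In LM2 cells AC063960.1 had 69 nuclear and 3 cytoplasmic reads, a 35.4-fold difference (95% counting interval 11.6 to 176). In the knockdown table they were AC063960.1, AC098864.1, AL590428.1 and AL157756.1 in gHNRNPC cells (3.61 to 4.65) and AL157756.1, AL109628.2, FBXL19-AS1 and AC063960.1 in gCTRL cells (3.35 to 3.77). BSN-AS1 had 5.03, 177.5 and 16.6 CPM in Par nuclei and 1.72, 1.92 and 2.20 CPM in Par cytoplasm. Its difference was 2.40 with an adjusted p of 0.068 (edgeR) without Par nuclear library 2. AC079336.5, another non-whole gene, was lower in the nucleus, with values of −1.98 in LM2 cells, −1.86 in Par cells and −2.29 in gCTRL cells. Genes with few cytoplasmic reads, such as AC063960.1, qualified through the nuclear libraries, so the rule partly fixes the size of their differences.

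With HNRNPC depleted, more whole-valued antisense RNAs passed the test as higher than as lower. HNRNPC itself had 99.9 ± 13.1 CPM in gHNRNPC cytoplasm and 512 ± 32.1 CPM in gCTRL cytoplasm (SD, n = 3 each), a log2 change of −2.36 ± 0.19 (edgeR adjusted p = 1.58e-08), and −2.44 ± 0.20 in nuclei. The minimum of 10 reads was a mean over gHNRNPC and gCTRL libraries together. Of the 42 whole-valued genes 12 averaged fewer over the 6 gCTRL libraries alone. They were VPS9D1-AS1, AC121761.1, AC009779.2, AC009831.1, AC034236.2, AL031673.1, AL118516.1, AL365181.3, HCG18, PITPNA-AS1, PXN-AS1 and SBF2-AS1. Such genes qualified through the gHNRNPC libraries, so the rule partly fixes the counts that follow. In cytoplasm 16 of 42 whole-valued genes rose and 1 fell, and in nuclei 16 rose and none fell. Of these risers 8 in cytoplasm and 7 in nuclei were among those 12. With genes chosen by the gCTRL libraries alone, an alternative added after seeing the data, 8 of 32 rose and 1 fell in cytoplasm (median log2 change 0.44), and 9 of 32 rose and none fell in nuclei (median 0.60). Among all genes tested 11.7% rose and 11.7% fell in cytoplasm (median 0.01), and 8.43% rose and 5.7% fell in nuclei (median 0.04). Of the 16 genes that rose in each fraction 13 were on both lists, 81.2% of each. Among these AC009779.2, AC009831.1, AC121761.1, AL031673.1, AL118516.1, AL365181.3 and VPS9D1-AS1 qualified through the gHNRNPC libraries of both fractions. The rule thus partly fixes this overlap, and the same share over all genes is not given here. The fractions were sequenced as separate libraries.

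The non-whole genes gave other counts. In cytoplasm 5 of 84 rose and 13 fell (median −0.28), and in nuclei 2 rose and 1 fell (median 0.05). The lincRNA genes had 31 of 206 higher and 15 lower in cytoplasm and 23 higher and 5 lower in nuclei. Of 24 genes of the nuclear exosome and its adaptors, which degrade antisense transcripts, 17 were tested: 1 rose and 1 fell in cytoplasm (median 0.06) and 2 rose in nuclei (median 0.09). The summed level of the 42 whole-valued genes, chosen as above, was 1444 ± 121 CPM in gHNRNPC nuclei and 732 ± 53.5 CPM in gCTRL nuclei. In cytoplasm it was 1150 ± 25.9 CPM in gHNRNPC cells and 809 ± 34.1 CPM in gCTRL cells, with no overlap in either fraction. AL355075.4 gave 370.4 CPM of the sum in gHNRNPC nuclei and 88.9 CPM of that in gCTRL nuclei.

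**Figure D3:**
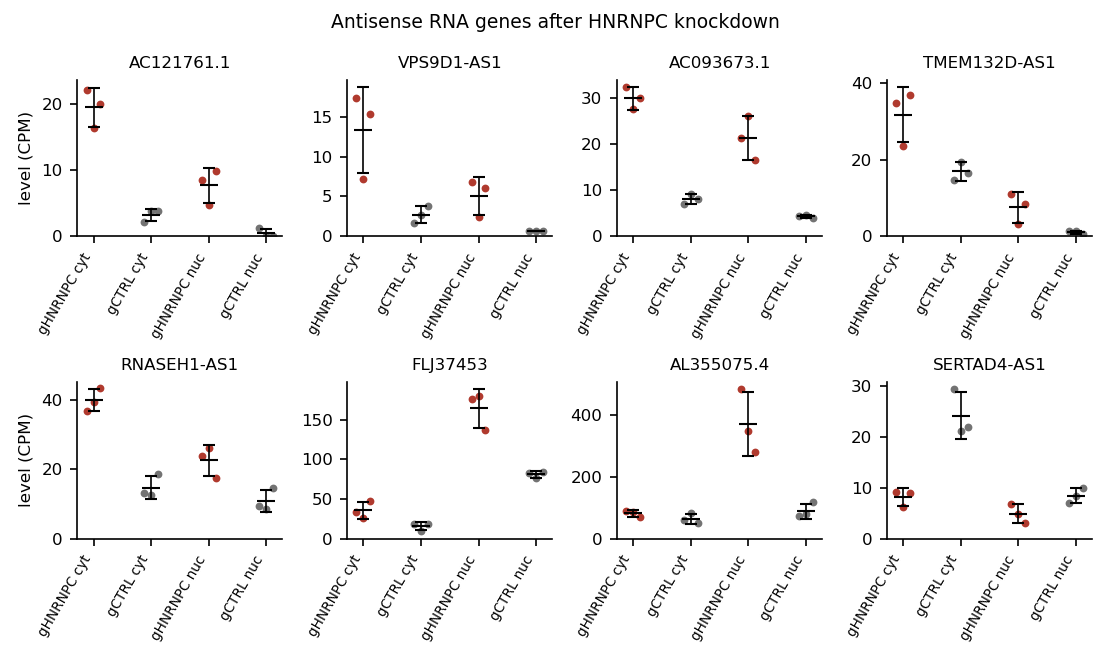
Levels in CPM of 8 antisense RNAs in gHNRNPC (red) and gCTRL (grey) libraries of cytoplasm (cyt) and nuclei (nuc); points are libraries, bars means ± SD of 3. AC121761.1, VPS9D1-AS1, AC093673.1, TMEM132D-AS1, RNASEH1-AS1 and FLJ37453 lie higher in every gHNRNPC library than in gCTRL in both fractions, AL355075.4 in nuclei, and SERTAD4-AS1 lies lower in cytoplasm.

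AC121761.1 rose in both fractions. In cytoplasm it had 22.2, 16.4 and 20.1 CPM in gHNRNPC cells and 2.17, 3.78 and 3.79 CPM in gCTRL cells, a change of 2.56 ± 0.43 (edgeR adjusted p = 0.000146). All gHNRNPC libraries were above all gCTRL libraries. In nuclei 29 reads were counted in gHNRNPC and 2 in gCTRL libraries, a 16.5-fold difference (95% counting interval 4.18 to 143). KRR1, a coding gene that ends 1041 bp upstream on the same strand, had changes of −0.12 and −0.17.

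VPS9D1-AS1 (chromosome 16, 89711856 to 89718165, plus strand) had 17.4, 7.16 and 15.4 CPM in gHNRNPC cytoplasm and 1.63, 2.70 and 3.79 CPM in gCTRL cytoplasm, and rose by 2.25 ± 0.48 (edgeR adjusted p = 0.00143). In nuclei there were 19 reads in gHNRNPC libraries and 3 in gCTRL libraries, 7.21-fold (95% counting interval 2.12 to 38.1), and the nuclear call was kept in 10 of 14 alternatives. AC093673.1 (chromosome 7, 143379692 to 143380495, minus strand) starts 585 bp from ZYX, which encodes the focal adhesion protein zyxin. It had 32.6, 27.6 and 30.0 CPM in gHNRNPC cytoplasm and 7.07, 9.19 and 8.06 CPM in gCTRL cytoplasm. The change was 1.88 ± 0.29 (edgeR adjusted p = 4.64e-05) and, in nuclei, 2.29 ± 0.35 (adjusted p = 8.36e-05).

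Others rose in both fractions. AL365181.3 (chromosome 1, 156641666 to 156644887, minus strand) rose by 1.78 ± 0.36 in cytoplasm and 2.24 ± 0.43 in nuclei, AL118516.1 (chromosome 22, 46761894 to 46762563, minus strand) by 2.41 ± 0.54 and 1.98 ± 0.49, AL031673.1 (chromosome 20, 25680781 to 25681246, plus strand) by 2.44 ± 0.56 and 2.03 ± 0.53, and AC009831.1 (chromosome 18, 31942575 to 31944156, plus strand) by 2.67 ± 0.57 and 1.71 ± 0.43. Each of these had at most 10 reads in the gCTRL cytoplasmic libraries together except AL365181.3 and AL118516.1, so their sizes are imprecise. AL365181.3, AL118516.1, AL031673.1 and AC009831.1 qualified through the gHNRNPC libraries, so the rule partly fixes their rises. TMEM132D-AS1 rose by 0.91 ± 0.30 in cytoplasm and 2.71 ± 0.60 in nuclei.

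The remaining whole-valued calls are given here although they were chosen after their values were seen. RNASEH1-AS1 (chromosome 2, 3558492 to 3561745, plus strand), partner of the gene of ribonuclease H1, had 36.9, 39.4 and 43.3 CPM in gHNRNPC cytoplasm and 13.1, 12.4 and 18.5 CPM in gCTRL cytoplasm. It rose by 1.43 ± 0.26 there (edgeR adjusted p = 0.000383) and by 1.05 ± 0.31 in nuclei, where the call was kept in 8 of 14 alternatives. FLJ37453 rose by 1.20 ± 0.26 and 1.02 ± 0.22, MAFG-DT by 1.21 ± 0.32 and 1.48 ± 0.45, and THUMPD3-AS1 by 1.09 ± 0.37 and 1.17 ± 0.26. AC009779.2 rose by 1.44 ± 0.45 and 1.596 ± 0.54, the nuclear call in 3 of 14 alternatives. It too qualified through the gHNRNPC libraries. In cytoplasm the calls of THUMPD3-AS1 and TMEM132D-AS1 were each kept in 7 and 8 of 15 alternatives, with an adjusted p of up to 0.14 (edgeR) without gHNRNPC cytoplasmic library 3.

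Calls in 1 fraction were fewer, and no whole-valued gene passed the test of a difference in change between fractions. In cytoplasm AL354836.1 rose by 0.76 ± 0.23, HCG18 by 1.10 ± 0.39 and THAP9-AS1 by 1.80 ± 0.33. The calls were kept in 10 of 15, 3 of 14 and 15 of 15 alternatives. HCG18 qualified through the gHNRNPC libraries. In nuclei AL355075.4 rose by 2.06 ± 0.24, AC027307.2 by 0.84 ± 0.22 (kept in 13 of 15 alternatives) and RAB11B-AS1 by 1.15 ± 0.39, the last in 3 of 15 alternatives. AL355075.4 (chromosome 14, 20343048 to 20343685, minus strand) had 484, 349 and 279 CPM in gHNRNPC nuclei and 71.7, 78.2 and 117 CPM in gCTRL nuclei, without overlap (edgeR adjusted p = 2.18e-06). In cytoplasm its libraries overlapped, with a value of 0.35. Tests of the difference in change between fractions passed for 0.0214% of all genes, and among the antisense RNA genes for EXOC3-AS1, a non-whole gene, alone (1.66 ± 0.28, edgeR adjusted p = 0.0169). EXOC3-AS1 had 43.6 ± 3.17 CPM in gHNRNPC cytoplasm and 141.5 ± 13.05 CPM in gCTRL cytoplasm (SD, n = 3 each), and overlapping nuclear groups. Its call was kept in 13 of 20 alternatives and lost under the replicate block and without gHNRNPC nuclear library 3. No gene passed without gHNRNPC cytoplasmic library 2 or 3, gCTRL cytoplasmic library 1 or 2 or gCTRL nuclear library 2, and 2 passed without gCTRL nuclear library 3.

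SERTAD4-AS1 (chromosome 1, 210231456 to 210234047, minus strand) was the whole-valued gene that fell. It had 9.22, 6.13 and 8.99 CPM in gHNRNPC cytoplasm and 29.4, 21.1 and 21.8 CPM in gCTRL cytoplasm, a change of −1.56 ± 0.32 (edgeR adjusted p = 0.00107). The groups did not overlap. Its partner SERTAD4 had 0, 1.02 and 2.57 CPM in gHNRNPC cytoplasm and 10.3, 4.87 and 10.9 CPM in gCTRL cytoplasm, and fell as well, by 2.70 on the log2 scale (edgeR adjusted p = 0.00375). Across all antisense RNA genes the nuclear count of 19 became 11 without gCTRL nuclear library 2, and the whole-valued count of 16 became 9.

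Few sense genes passed the test beside their antisense RNAs. The pairs hold antisense RNAs chosen by the same minimum, so the size of the antisense change is partly fixed there too. In 24 whole-valued pairs with both RNAs tested, the median change in cytoplasm was 1.00 for the antisense RNA and −0.26 for the sense RNA, and in nuclei 1.01 and 0.04. In cytoplasm both passed in the same direction in 2 pairs (AC121761.1 with GLIPR1 and SERTAD4-AS1 with SERTAD4) and in opposite directions in 1 (AL118516.1 with TBC1D22A, −0.75, edgeR adjusted p = 0.0135); the antisense RNA alone passed in 9 and the sense RNA alone in 2. In nuclei the antisense RNA alone passed in 11, the sense RNA alone in 2, and both in none. Passing in 1 of 2 RNAs is not a test of their difference, so the ratio of antisense to sense reads was tested in pairs where both averaged at least 10 reads.

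**Figure D4:**
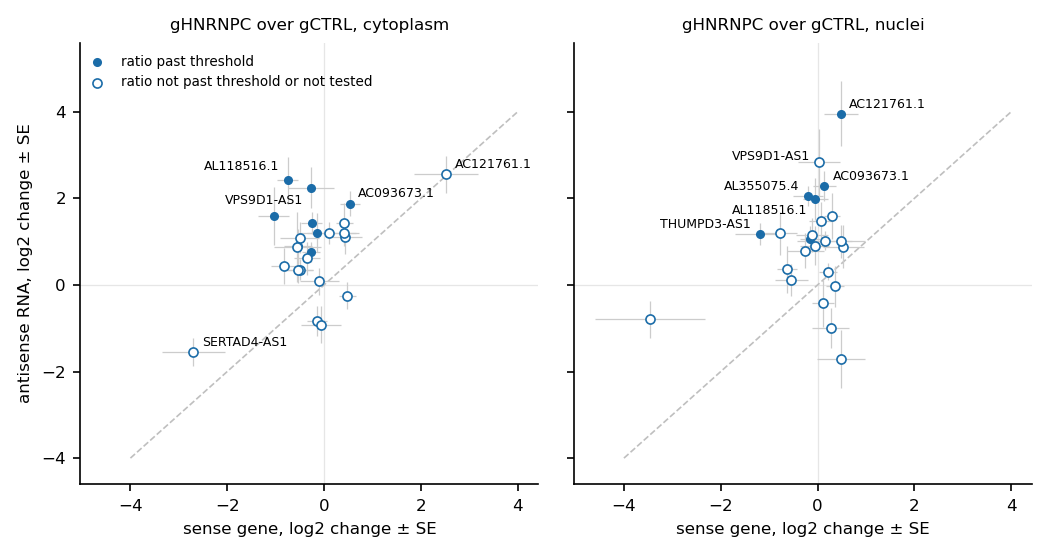
Log2 change of the antisense RNA (y axis) against that of its sense gene (x axis) after HNRNPC knockdown, in cytoplasm and nuclei, for whole-valued pairs; bars are standard errors, filled points pairs whose ratio changed and the dashed line equal change. Most points lie above the line, and AC121761.1 lies near it in cytoplasm at 2.56 and 2.53 and above it in nuclei.

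In cytoplasm the ratio rose in 8 of 23 whole-valued pairs and fell in none (median 1.02), and in nuclei in 6 and none (median 1.04). Over all the pairs tested, whole-valued or not, 27.7% passed in cytoplasm and 10.8% in nuclei. In each table the pairs tested are those of the antisense RNA genes here and that of SLCO4A1-AS1, so such shares are no separate background. The ratio rose in both fractions for AC093673.1 to ZYX, RNASEH1-AS1 to RNASEH1 and AL118516.1 to TBC1D22A. ZYX had values of 0.53 and 0.14, RNASEH1 of −0.26 and −0.16, none past the threshold. VPS9D1-AS1, AL354836.1, AC034236.2, PXN-AS1 and PRKCZ-AS1 had a ratio that rose in cytoplasm, and AL355075.4, THUMPD3-AS1 and AC121761.1 in nuclei. For AC121761.1 the ratio did not pass in cytoplasm (0.03), where GLIPR1 had 2.71, 5.62 and 7.28 CPM in gHNRNPC and 0, 1.62 and 0.948 CPM in gCTRL libraries. The nuclear count of pairs, 7 with the non-whole AC007292.2, became 4 without gCTRL nuclear library 2 and 3 without gHNRNPC nuclear library 1.

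Between nucleus and cytoplasm the ratio to the sense gene passed in 44 of 64 pairs in gHNRNPC cells and in 44 in gCTRL cells, 69.2% of all pairs tested in each, and in 17 of 48 in LM2 cells and 9 in Par cells, 34.7% and 18.4%. Of the whole-valued pairs in gCTRL cells, 7 had a ratio higher in the nucleus and 8 a lower one. The nuclear ones included THUMPD3-AS1 (2.71), AL354836.1 (3.31), AC034236.2 (4.39) and AC021097.1 (4.13). The cytoplasmic ones included AC121761.1 (−7.29), VPS9D1-AS1 (−2.90) and MAFG-DT (−2.35). Several of these sizes rest on few reads and are imprecise. In gCTRL nuclei AC121761.1 had 2, 0 and 0 reads and VPS9D1-AS1 1, 1 and 1. In gCTRL cytoplasm GLIPR1, the partner of AC121761.1, had 0, 3 and 2 reads, AC034236.2 had 1, 3 and 1, and AC021097.1 had 4, 2 and 0. The count in Par cells was 0, 2 and 5 without Par cytoplasmic library 1, 2 and 3, and 25 without Par nuclear library 1; in LM2 cells it was 8, 4 and 2 without LM2 cytoplasmic library 1, 2 and 3.

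Between LM2 and Par cells 2 antisense RNAs, both whole-valued, passed with all groups of the table in the fit. In cytoplasm 1 was higher and 1 lower of 103 tested, where 3.98% of all genes were higher and 6.92% lower, and in nuclei 1 was higher, where 1.15% were higher and 1.08% lower. No gene of any type passed the test of a difference between fractions (0%). In it 3 of the antisense RNA genes had an unadjusted p under 0.05 (edgeR), as did 756 of all 8542 genes. The cytoplasmic count was 36, of which 6 were whole-valued, with only the groups compared in the fit, 4 without Par cytoplasmic library 3 and 10 without both nuclear libraries numbered 2, which enter the same fit.

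AC093673.1, the RNA that starts beside ZYX, was higher in LM2 cells. In cytoplasm it had 41.7, 64.3 and 50.9 CPM in LM2 cells and 7.76, 11.5 and 9.35 CPM in Par cells, a change of 2.45 ± 0.29 (edgeR adjusted p = 0.00109). In nuclei it had 33.7, 54.1 and 40.4 CPM in LM2 cells and 2.15, 4.61 and 1.66 CPM in Par cells, a change of 3.97 ± 0.37 (adjusted p = 0.000237). No LM2 library overlapped a Par library. ZYX differed by 0.15 and 0.21, past no threshold. The ratio of AC093673.1 to ZYX rose by 3.77 in nuclei, the only 1 of 49 pairs tested to pass there (2.04%). None passed without Par nuclear library 1 or 3. In the other tables, scaled separately, AC093673.1 had 18.2 to 71.4 CPM in the DMSO libraries of LM2 cells. It had 7.07 to 9.19 CPM in gCTRL cytoplasm of poorly metastatic cells.

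AFAP1-AS1 (chromosome 4, 7754090 to 7778928, plus strand) was lower in LM2 cells. Its partner AFAP1 encodes a protein that binds actin filaments. In cytoplasm AFAP1-AS1 had 0, 0.619 and 1.14 CPM in LM2 cells and 23.7, 34.1 and 28.1 CPM in Par cells, 3 against 177 reads, so Par was 49.1-fold higher (95% counting interval 16.5 to 240; edgeR adjusted p = 0.00181). The groups did not overlap. In nuclei it had 0, 0 and 2.79 CPM in LM2 cells and 2.87, 5.76 and 4.14 CPM in Par cells, without passing the test (adjusted p = 0.401). AFAP1 differed by 0.07 in cytoplasm, and the ratio fell by 5.52 on the log2 scale. This was the only 1 of 49 pairs tested to pass there (2.04%). Without LM2 cytoplasmic library 1 or 2, or any 1 Par cytoplasmic library, no pair passed. The mean of AFAP1-AS1 over the T4 table, all LM2 cells, was 0.828 CPM. The knockdown passed no threshold for AFAP1-AS1, with log2 changes of 0.34 in cytoplasm (edgeR adjusted p = 0.415) and −0.996 in nuclei (edgeR adjusted p = 0.164).

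The number of antisense RNAs past the threshold with T4 depended on the fit, so the single genes with large changes are described after the counts. At 6 h 4 of 19 whole-valued genes rose and 3 fell (median −0.22), and 6 of 105 non-whole genes rose and 1 fell (median 0.96), where 3.41% of all genes rose and 12.6% fell (median −0.11). At 24 h 1 whole-valued gene rose and 2 fell, and 2 non-whole genes rose, against 2.2% and 3.04% of all genes. The non-whole genes had positive values in 101 of 105 at 6 h and in 104 of 105 at 24 h (median 0.98). Of all 8035 genes tested, 3550 were positive at 6 h and 4118 at 24 h. At 72 h the direction was the other way, with 8 of the 105 non-whole genes positive (median −0.41) beside 3912 of all genes. Reads of the non-whole genes had been divided between sequences, so their signs may not be independent of each other. An unadjusted p under 0.05 (edgeR) was found at 24 h for 58 of the 124 antisense RNA genes and 1986 of all 8035. With only the groups compared in the fit 7 genes passed at 6 h and 83 at 24 h, and with no filter on low counts 71 and 69. At 72 h none passed, where 0.0996% of all genes rose and 0.162% fell. There edgeR gave 7 of 124 with an unadjusted p under 0.05, against 681 of all 8035 genes. DESeq2 called 1 of the 124. Of 16 tested exosome and adaptor genes 1 rose and 2 fell at 6 h, 1 fell at 24 h and none passed at 72 h. The rising whole-valued gene at 24 h was AL355075.4. The count of 14 at 6 h was 8 without DMSO library 1, and 12 without T4 library 3, the library that stood apart. The count of 5 at 24 h was 2, 1 and 2 without DMSO library 1, 2 and 3, and 1, 3 and 2 without T4 library 1, 2 and 3.

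**Figure D5:**
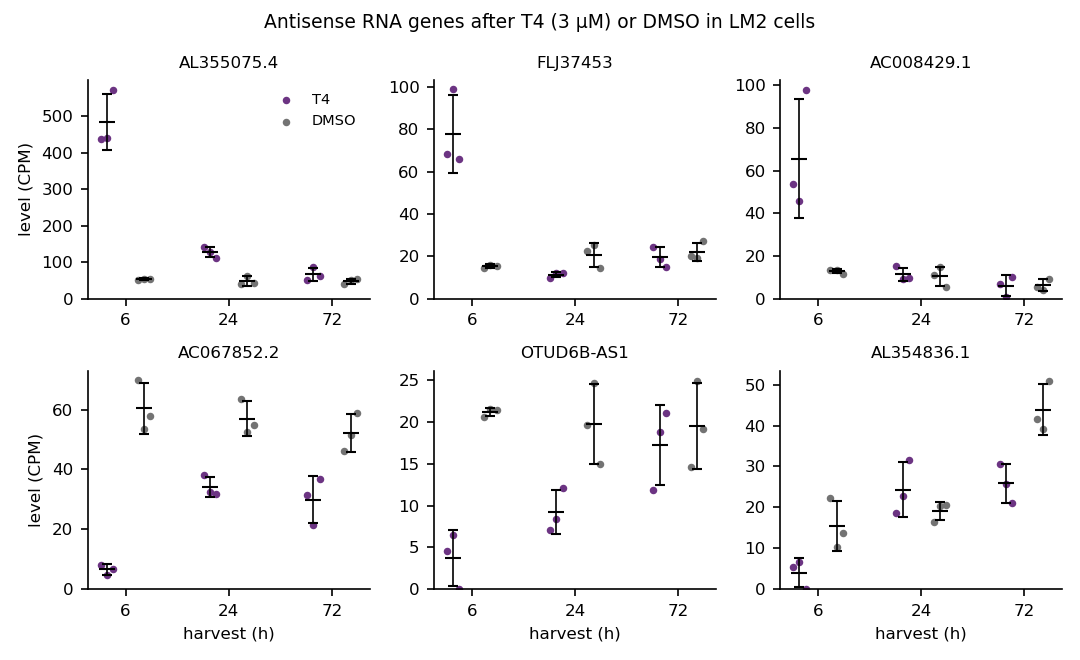
Levels in CPM of 6 antisense RNAs in LM2 cells at 6, 24 and 72 h (x axis, hours to harvest) after T4 (purple) or DMSO (grey); points are libraries, bars means ± SD of 3. At 6 h AL355075.4, FLJ37453 and AC008429.1 lie higher and AC067852.2, OTUD6B-AS1 and AL354836.1 lower with T4, and at 72 h the changes of all 6 are past no threshold.

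AL355075.4 rose at 6 h and 24 h. At 6 h it had 437, 440.5 and 573 CPM with T4 and 50.8, 54.3 and 54.6 CPM with DMSO, a change of 3.18 ± 0.24 (edgeR adjusted p = 6.67e-07). At 24 h it had 141, 129 and 112 CPM with T4 and 40.0, 62.9 and 41.8 CPM with DMSO, a change of 1.40 ± 0.23 (adjusted p = 0.00281). The groups did not overlap at either time. At 72 h it had 52.0, 86.4 and 60.7 CPM with T4 and 38.4, 49.9 and 52.2 CPM with DMSO and did not pass. PARP2, a poly(ADP-ribose) polymerase gene on the other strand, had values of −0.90, 0.29 and 0.69, past no threshold, and the ratio rose by 4.02 at 6 h.

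FLJ37453 had 68.2, 98.9 and 65.9 CPM with T4 and 14.3, 16.0 and 15.6 CPM with DMSO at 6 h, a change of 2.36 ± 0.26 (edgeR adjusted p = 1.2e-05). At 24 h the order was the other way, with 9.73, 12.1 and 12.2 CPM with T4 and 22.2, 25.3 and 14.3 CPM with DMSO, without passing (adjusted p = 0.0932). AC008429.1 (chromosome 5, 172954786 to 172959392, minus strand) rose by 2.27 ± 0.46 at 6 h. Although whole-valued, 37.8% of the 31-base stretches at its end are shared with other genes, 397 in all. AC009831.1 rose by 1.49 ± 0.39, with overlapping groups: T4 library 3 had 9.09 CPM, against 9.52 to 12.35 CPM with DMSO. Its call was kept in 10 of 15 alternatives.

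AC067852.2 (chromosome 17, 42552436 to 42554748, minus strand) fell at 6 h. Its end lies in exons of HSD17B1, which encodes an enzyme of oestradiol synthesis and was not among the genes tested, at 0.624 to 5.02 CPM in the libraries of the T4 table. AC067852.2 had 8.18, 4.67 and 6.82 CPM with T4 and 69.8, 53.5 and 57.9 CPM with DMSO at 6 h, a change of −3.19 ± 0.29 (edgeR adjusted p = 1.34e-06). All T4 libraries were below all DMSO libraries. At 24 h it had 38.0, 32.6 and 31.6 CPM with T4 and 63.5, 52.4 and 54.9 CPM with DMSO (adjusted p = 0.0526), and at 72 h its value was −0.81 ± 0.21 with an adjusted p of 0.169 (edgeR). OTUD6B-AS1, partner of a deubiquitinase gene, had 5, 7 and 0 reads with T4 and 26, 27 and 33 reads with DMSO at 6 h, a change of −2.21 ± 0.44. AL354836.1 had 5.46, 6.53 and 0 CPM with T4 and 22.2, 10.4 and 13.7 CPM with DMSO, a change of −1.64 ± 0.46, while ADRM1 had a value of 0.52.

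At 24 h PRR34-AS1 fell by 1.01 ± 0.28 and AC100810.1 by 1.80 ± 0.41. PRR34-AS1 had 17.7, 9.10 and 18.6 CPM with T4 and 29.2, 31.4 and 30.6 CPM with DMSO, and its call was kept in 6 of 15 alternatives. Non-whole genes that passed were AL109628.2 (2.14), AC007608.1 (1.57) and AC006329.1 (−1.64) among those at 6 h, and UGDH-AS1 (1.23) and AC063960.1 (1.15) at 24 h. AL109628.2 had 25.5, 26.1 and 84.1 CPM with T4 and 8.72, 11.2 and 7.80 CPM with DMSO, with T4 library 3 highest. The ratio to the sense gene passed in 20% of pairs tested at 6 h, in 24.4% at 24 h and in 0% at 72 h; among whole-valued pairs it rose in 3 and fell in 1 at 6 h and fell in 2 at 24 h. Among those that rose was THUMPD3-AS1, whose own value was −0.26 while THUMPD3 fell by 4.37 on the log2 scale (edgeR adjusted p = 0.00177). THUMPD3 had 1, 0 and 0 reads with T4 and 14, 14 and 11 with DMSO. THUMPD3-AS1 had 7, 6 and 1 reads with T4 and 9, 2 and 15 with DMSO. The sizes of this fall and of the ratio change are therefore imprecise. Those that fell at 24 h were RNASEH1-AS1 to RNASEH1 and AC100810.1 to CLN8. The count of pairs at 24 h, 11, was 3, 8 and 4 without DMSO library 1, 2 and 3 of that time and 1 and 5 without T4 library 1 and 2.

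The change with T4 itself differed between times for some RNAs. Against 6 h, 4 antisense RNA genes passed at 24 h, where 9.1% of all genes did, and 6 at 72 h, where 9.38% did. The change of FLJ37453 was lower by 3.21 at 24 h and by 2.54 at 72 h, and that of AL355075.4 by 1.78 and 2.68. The change of AC067852.2 was higher by 2.45 and 2.38. The count at 24 h was 8 without T4 library 3 of 6 h. That at 72 h was 3 without DMSO library 2 or 3 of 6 h, 10 without T4 library 2 of 6 h, and 3, 13 and 3 without DMSO library 1, 2 and 3 of 72 h.

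Of antisense RNAs described in other studies, 7 on the list qualified: AFAP1-AS1, FGD5-AS1, FOXD3-AS1, SBF2-AS1, THAP9-AS1, PXN-AS1 and VPS9D1-AS1. FGD5-AS1 was a non-whole gene; it had 136 ± 25.9 CPM in gHNRNPC cytoplasm and 215 ± 40.1 CPM in gCTRL cytoplasm (SD, n = 3 each), a change of −0.66 ± 0.21 (edgeR adjusted p = 0.0253). THAP9-AS1 had 22.8 to 33.2 CPM in gHNRNPC cytoplasm and 9.79, 7.03 and 6.16 CPM in gCTRL cytoplasm, without overlap. Its change was 1.80 ± 0.33 (edgeR adjusted p = 0.000413). SEC31A overlaps it on the same strand, and whether SEC31A reads contribute was not tested. PXN-AS1, partner of the paxillin gene, had 12.6 ± 3.98 CPM in gHNRNPC cytoplasm and 5.45 ± 2.47 CPM in gCTRL cytoplasm, without passing (edgeR adjusted p = 0.0514). FOXD3-AS1 and SBF2-AS1 had values of 0.74 and 0.37 there, past no threshold.

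The genes with the most reads were AC020656.1, TMEM254-AS1, AL034550.2, KTN1-AS1, AC073342.1, AC093827.4 and AC018521.2, all non-whole. AC020656.1 (chromosome 12, 69353493 to 69354225, minus strand; partner LYZ, in whose exons its end lies) had 945 ± 31.2 CPM in gHNRNPC nuclei and 897 ± 110 CPM in gCTRL nuclei (SD, n = 3 each), without passing. In LM2 nuclei it had 314, 3615 and 759 CPM and in Par nuclei 189.5, 3385 and 366 CPM, so that library 2 was highest in both. LYZ encodes lysozyme, an enzyme of myeloid cells. KTN1-AS1 (chromosome 14, 55499278 to 55580110, minus strand) followed the same pattern, with 169.7, 2386 and 509.7 CPM in LM2 nuclei and 103, 2113 and 219 CPM in Par nuclei.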

How the data were processed

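QuantSeq REV 3′-end libraries of MDA-MB-231 cells were analysed from 3 deposited tables. The authors deposited expected counts, made with Salmon 0.14.1 for hg38 according to their processing notes, one value for each transcript end or position. How reads were assigned to strands and to repeated sequences is not given in the sources used here. Of 94924 entries, 89065 were assigned to GENCODE 29 genes, and 98.3 to 98.8% of entries were whole (within 1e-06). The entries left out held 0.934 to 4.23% of a library's counts. Columns named MDAtr were matched to the Par samples by elimination.

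Counts were summed per gene, rounded, filtered with filterByExpr, scaled with TMM and tested with edgeR 4.0.16 (limma 3.58.1, R 4.3.3), one fit per table, with Benjamini-Hochberg adjustment over all genes of a comparison and a threshold of 0.05. DESeq2 1.42.0 was an alternative. Ratios of antisense to sense reads were tested as the interaction of RNA and group in edgeR, adjusted over all pairs, of which 1 was that of SLCO4A1-AS1. edgeR's biological coefficient of variation was 36.7%, 18.8% and 24.8% in the LM2, knockdown and T4 tables. The test was also run on counts simulated from edgeR's own model, and the outcome is not given here. Such counts hold no non-whole values or outlying libraries, so they cannot judge the test for those. Intervals and the floor of 3 counts cover counting error only.

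Genes were named by rule: all past the threshold in a comparison if 10 or fewer, otherwise the 5 largest in each direction whose libraries do not overlap; the 5 of highest CPM per table; the pairs whose ratio passed (all if 6 or fewer, otherwise 3 in each direction); and a list of described antisense RNAs. Members and lists were chosen with earlier results of these data known. Same-numbered libraries deviated together in LM2 against Par nuclei (correlations of 0.642, 0.763 and 0.161) and in T4 against DMSO at 72 h (0.285, 0.641 and 0.14), as a check of the data; a replicate block left the counts there at 1 and 0.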

Additional observations from a re-analysis of the deposited data

Results flagged for a closer look

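In the HNRNPC knockdown, 1 antisense RNA gene changed differently in the 2 fractions. EXOC3-AS1, whose values are non-whole, had a difference of 1.66 between its change in nuclei and in cytoplasm, by a test of the difference itself. The call was kept in 13 of 20 alternatives.

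With T4, the change from DMSO differed between times in 7 genes by the same kind of test. Between 24 h and 6 h the difference was −3.21 for FLJ37453, 1.98 for AL354836.1, −1.78 for AL355075.4 and 2.45 for AC067852.2. Between 72 h and 6 h it was −2.54 for FLJ37453, 2.02 for OTUD6B-AS1, −2.68 for AL355075.4, 2.38 for AC067852.2 and, for the non-whole genes, −2.06 for AC022710.1 and −1.36 for AC063960.1. T4 library 3 at 6 h was the highest of its group for AC022710.1, with 132 CPM beside 60.9 and 68.1 CPM, and for AC063960.1, with 84.1 CPM beside 41.8 and 39.2 CPM. Without that library the call of AC063960.1 was lost and that of AC022710.1 was kept. Over all alternatives the calls were kept in 14 of 21 for AL354836.1, 13 of 21 for OTUD6B-AS1, 14 of 20 for AC022710.1 and 6 of 20 for AC063960.1, and in 21 of 21 for the other named genes at each time.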

How the results depend on the processing

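No named gene or pair reversed its direction under any alternative: of 2769 values recomputed for named genes and pairs, 2433 kept their side of the threshold and 336 lost it. Reads per gene limit these calls, and the counts of genes past the threshold moved more than their directions. The cause of each shift was not tested, except that leaving out non-whole entries removes reads of the non-whole genes.

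Counts of all antisense RNA genes moved as follows. With non-whole entries left out they were 13 for the nucleus in LM2 cells, 14 in Par cells, 24 in gHNRNPC cells and 23 in gCTRL cells (48, 56, 99 and 95 with all entries), 5 for LM2 against Par cytoplasm (2), 18 for gHNRNPC against gCTRL cytoplasm (35), and for T4 7 at 6 h and 3 at 24 h (14 and 5), and 0 for the difference of knockdown effects (1). With DESeq2 they were 4 for LM2 against Par cytoplasm, 27, 13 and 1 for T4 at 6, 24 and 72 h, 2 for the difference of knockdown effects and 12 for T4 at 72 h against 6 h (6). With no filter on low counts they were 71 and 69 for T4 at 6 and 24 h, 3 for the difference of knockdown effects and 66 for T4 at 72 h against 6 h. With only the groups compared in the fit they were 36 for LM2 against Par cytoplasm, 12 for the nuclear knockdown (19), 7 for T4 at 6 h, 83 for T4 at 24 h, and 3 for T4 at 72 h against 6 h. With the member minimum at 20 or 5 reads, LM2 against Par cytoplasm gave 1 and 5; at 20, T4 at 6 h gave 9; at 5, LM2 against Par nuclei gave 2 (1). With entries of the same transcript version only, LM2 against Par cytoplasm gave 1, since AFAP1-AS1 drops out. Without both nuclear libraries numbered 2 it gave 10. With genes chosen by the Par or gCTRL libraries alone, also added after seeing the data, LM2 against Par nuclei gave 2 and the nuclear knockdown 12; of whole-valued genes they gave 2 (1) and 9 (16), and the knockdown in cytoplasm 9 (17).

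Leaving out 1 library at a time gave 14 to 63 for the nucleus in LM2 cells, 17 to 68 in Par cells, 91 to 95 in gHNRNPC cells and 86 to 96 in gCTRL cells. It gave 2 to 4 for LM2 against Par cytoplasm, 24 to 30 and 11 to 19 for the knockdown in cytoplasm and nuclei, 8 to 19 and 1 to 3 for T4 at 6 and 24 h, 0 to 2 for the difference of knockdown effects, and 3 to 8 and 3 to 13 for T4 at 24 and 72 h against 6 h.

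Counts of whole-valued genes alone, added after seeing the data, moved as well. LM2 against Par cytoplasm (2) gave 6 with only the groups compared, 1 with the same version, 5 with non-whole entries left out, 4 without both nuclear libraries numbered 2 and 2 to 4 leaving out 1 library. The knockdown gave 9 in nuclei (16) with only the groups compared and 9 to 15 leaving out 1 library, and 12 to 16 in cytoplasm (17). T4 at 24 h (3) gave 6 with DESeq2, 7 with only the groups compared and 1 to 2 leaving out 1 library, and at 72 h DESeq2 gave 1.

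Counts of pairs whose ratio passed fell when partners were matched by symbol: to 7 (17) for the nucleus in LM2 cells, 2 (9) in Par cells, 13 (44) in gHNRNPC cells, 13 (44) in gCTRL cells, 0 (1) for LM2 against Par nuclei, 3 (7) for the nuclear knockdown, 4 (9) for T4 at 6 h and 2 (11) for T4 at 24 h. With a mean of 20 reads they were 28 in gHNRNPC cells, 25 in gCTRL cells and 4 for T4 at 6 h. For the nucleus in Par cells limma gave 14, and limma with a replicate block 20; for LM2 against Par cytoplasm limma with the block gave 2. Leaving out 1 library gave 2 to 23 in LM2 cells, 0 to 25 in Par cells, 0 to 1 for LM2 against Par in each fraction, 3 to 10 for the nuclear knockdown and 1 to 8 for T4 at 24 h.

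In the other comparisons the correlations of same-numbered libraries ran from −0.349 to 0.252. Correlations over so few libraries cannot tell whether same-numbered libraries, such as the fractions, came from the same culture. With a replicate block 46 genes passed for the nucleus in LM2 cells, 51 in Par cells, 2 for LM2 against Par cytoplasm and 0 for the difference of knockdown effects; the block moved no other count of genes by over 1.5 times.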
